A study of Mus musculus with 10 samples.

Results

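The genes described here are 10 targets, subunits and feedback regulators of the transcription factor NF-kB: Tnf, Nfkb1, Nfkb2, Relb, Nfkbia, Nfkbiz, Tnfaip3, Tnip1, Zc3h12a and Birc3. They were chosen by symbol, and all 10 were found among the 17016 gene symbols of the deposited table. Whole skin was the source of the RNA, and the mice were BALB/c females 10 to 11 weeks old. All of the mice received a 5% cream of imiquimod, an agonist of the innate receptor TLR7 that induces skin inflammation resembling psoriasis, on the shaved back on 5 days. One group of 5 libraries came from mice given vehicle, and the other group of 5 from mice given 5 intraperitoneal injections of quinpirole, which activates the dopamine receptor DRD2, over the same days. The comparison therefore asks how these genes differed with and without quinpirole in inflamed skin; untreated skin was not analysed here.

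NF-kB is a family of dimeric transcription factors that inhibitor proteins, the IkB family, hold in the cytoplasm. Receptors for TNF, IL-1, IL-17 and microbial products activate a kinase complex that marks the inhibitor for destruction, and the freed dimers then switch on inflammatory genes together with genes that shut the pathway down again. In the epidermis this feedback is linked to psoriasis: variants near TNFAIP3, TNIP1, NFKBIA, NFKBIZ and ZC3H12A are associated with the disease in people, and IkB-zeta, the product of Nfkbiz, is an established mediator of IL-17 responses in keratinocytes.

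Libraries held 6763367 to 8361877 reads assigned to genes. A level is given in normalised CPM, a read count scaled to a library size that the authors adjusted, and 1 read was worth between 0.119 and 0.146 CPM. Of the marker lists used to check the tissue, those of basal keratinocytes, suprabasal keratinocytes and fibroblasts had a mean log2 level of at least 7.21 in every library. The hair shaft list varied most, from 0.527 to 5.69 in vehicle and from 0.563 to 5.73 in quinpirole libraries. Nothing in the labels states that the numbered samples are different mice, and the spread that the p-values rest on may be partly technical. In whole skin, fewer cells of a type and less RNA per cell cannot be told apart.

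Promoter sequences were looked at first, because several of these genes are classical targets of the factor that they regulate. RefSeq promoter windows, from 250 bases before to 50 bases after a start site on GRCm38.p6, were found for 7 of the 10 genes, and none was found for Nfkbiz, Nfkb1 or Relb. The kappaB consensus, a motif of 10 bases searched on both strands, was found in a window of 4 of those 7 genes: Nfkbia, Tnfaip3, Tnip1 and Nfkb2. Among all 27025 genes with a promoter window, 9.55% had a match. Counted by window, 6 of the 10 windows of these 7 genes had a match, against 8.46% of all windows and 13.25% of windows with at least 60% G and C. The Tnfaip3 window with a match had 56.7% G and C, below that floor. Because the 10 genes were listed as targets and regulators of NF-kB, these shares are a description. For each of these 4 genes 1 window is shown, because it carries the motif beside the start site. Matching bases are in capitals and the rest in lower case, each window written 5′ to 3′ on the strand of its gene. Nfkb2 had 3 windows for different start sites, each with a match, so the matches given below for it are not all of them. Tnfaip3 had 2 windows, and the one not shown had no match.
Nfkbia: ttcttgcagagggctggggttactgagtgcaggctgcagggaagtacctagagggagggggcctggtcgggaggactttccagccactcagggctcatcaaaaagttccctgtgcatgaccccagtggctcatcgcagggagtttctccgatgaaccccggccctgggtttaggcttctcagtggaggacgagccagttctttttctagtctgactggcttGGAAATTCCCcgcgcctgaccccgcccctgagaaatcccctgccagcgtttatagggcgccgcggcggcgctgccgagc
Tnfaip3: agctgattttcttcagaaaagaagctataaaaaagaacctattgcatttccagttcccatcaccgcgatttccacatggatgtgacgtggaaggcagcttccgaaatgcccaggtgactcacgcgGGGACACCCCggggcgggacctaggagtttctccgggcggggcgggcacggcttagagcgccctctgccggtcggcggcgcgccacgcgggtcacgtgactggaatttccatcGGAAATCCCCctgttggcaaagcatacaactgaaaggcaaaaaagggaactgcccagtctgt
Tnip1: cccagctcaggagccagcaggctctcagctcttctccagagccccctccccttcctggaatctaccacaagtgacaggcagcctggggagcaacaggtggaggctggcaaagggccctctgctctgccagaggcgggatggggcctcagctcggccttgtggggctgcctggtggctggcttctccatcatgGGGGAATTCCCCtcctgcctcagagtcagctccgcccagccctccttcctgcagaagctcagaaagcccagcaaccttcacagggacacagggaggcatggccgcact
Nfkb2: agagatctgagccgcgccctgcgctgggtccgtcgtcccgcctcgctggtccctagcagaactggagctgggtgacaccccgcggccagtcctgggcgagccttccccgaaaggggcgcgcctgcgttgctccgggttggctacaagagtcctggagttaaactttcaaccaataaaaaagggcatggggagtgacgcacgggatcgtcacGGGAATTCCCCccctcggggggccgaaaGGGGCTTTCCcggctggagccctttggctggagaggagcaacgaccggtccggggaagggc
The Nfkbia window lies on the minus strand at chr12:55492598-55492897, and its match GGAAATTCCC begins 29 bases before the start site. The Tnfaip3 window, on the minus strand at chr10:19015361-19015660, holds GGGACACCCC beginning 125 bases before the start site and GGAAATCCCC beginning 12 bases before it. The Tnip1 window, on the minus strand at chr11:54962891-54963190, and the Nfkb2 window, on the plus strand at chr19:46304487-46304786, share the palindrome GGGAATTCCC. It begins 57 bases before the start site in Tnip1 and 39 bases before it in Nfkb2, and shifted copies of the motif overlap it in both. Nfkb2 also has GGGGCTTTCC beginning 11 bases before the start site. A match is a description of the letters and not of binding, and binding was not measured.

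None of the 10 genes differed between quinpirole and vehicle beyond the spread between libraries. All 10 passed the filter on low values, limma called 0 of them at an adjusted p under 0.05, and 0 had an unadjusted p under 0.05. Over all 14548 genes tested, limma called 0.0206%, and 11.4% had an unadjusted p under 0.05. For 0 of the 10 genes did the groups stand apart without overlap, against 2.2% of all genes tested. On the recovered reads, edgeR's quasi-likelihood test called 0 of the 10, against 0.0344% of all genes, and DESeq2 called 0 of the 10, against 1.51%, again with 0 of the 10 at an unadjusted p under 0.05 by either tool. The 10 log2 fold changes of quinpirole over vehicle ran from -0.11 to 0.26, with 6 of 10 above 0, where 49.6% of all genes tested were above 0. Their median was 0.01, against -0.0021 over all genes tested. All fold changes were computed from log2(CPM + 1).

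**Figure D1:**
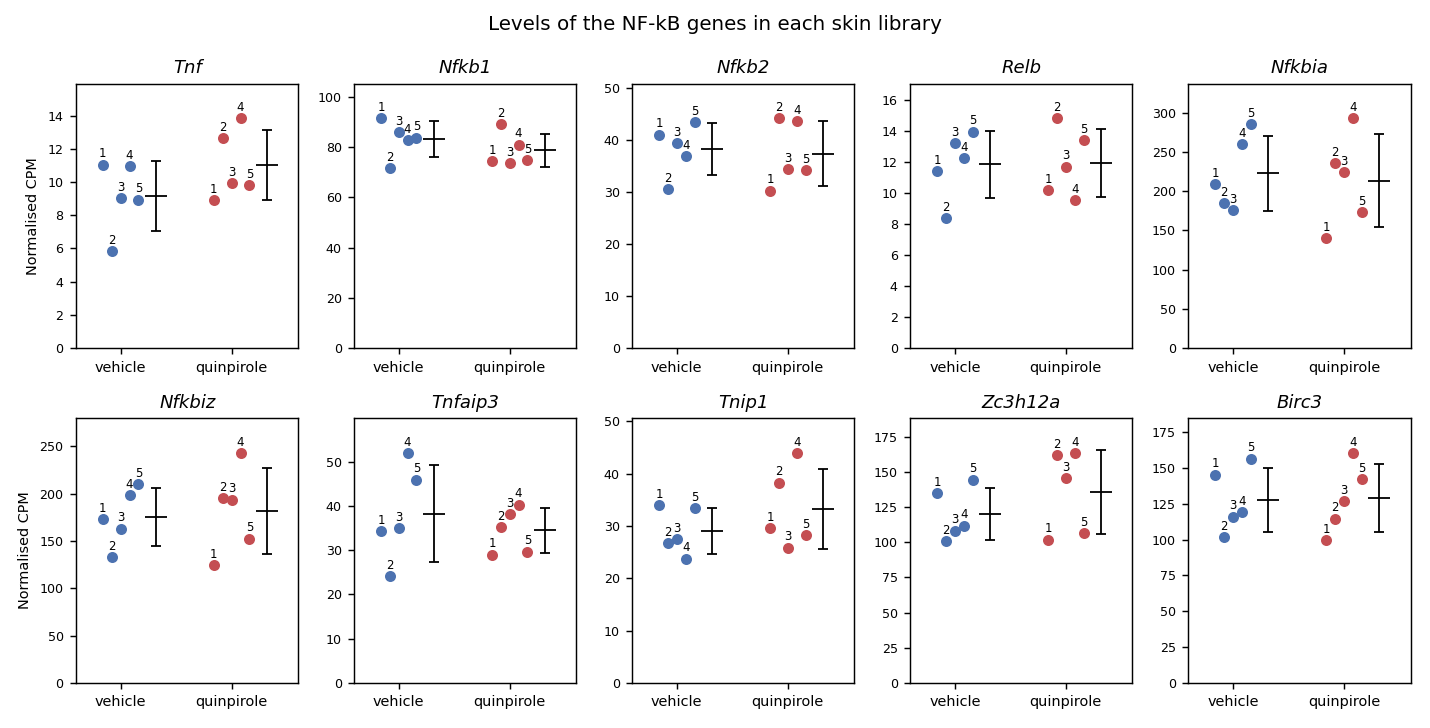
Normalised CPM of each of the 10 NF-kB genes in each library (points, numbered by replicate), with the group mean and SD (black, n = 5) beside them, for vehicle (blue) and quinpirole (red). The groups overlap for all 10 genes, and quinpirole replicate 4 has the highest value for 6 of them.

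Tnf encodes the inflammatory cytokine TNF, which is both a target and an activator of NF-kB. The gene lies at chr17:35199381-35202007 on the minus strand (GRCm38, the same assembly as mm10). Its level was 11.1, 5.83, 9.03, 11.0 and 8.94 CPM in vehicle replicates 1 to 5, and 8.91, 12.7, 9.94, 13.8 and 9.81 CPM in quinpirole replicates 1 to 5. Vehicle replicate 2 was lowest and quinpirole replicates 2 and 4 were highest, while the other 7 libraries of both groups lay between 8.91 and 11.1 CPM. The means were 9.16 ± 2.12 and 11.0 ± 2.11 CPM (SD, n = 5 each). On the log2 scale the difference was 0.26 with an SE of 0.18 (limma adjusted p = 0.625). This was the largest fold change of the 10, and its 95% interval ran from -0.13 to 0.64, which allows a level between 0.912 and 1.56 times that of vehicle. Tnf had 41 to 109 reads per library, and counting alone would give a CV of about 11.4%, against 22.0% observed over the 10 libraries.

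Of the 10 genes, the subunit genes Nfkb1 and Nfkb2 varied least over the 10 libraries, with a CV of 8.59% and 14.1%. Nfkb1 and Nfkb2 encode precursor proteins that are processed to DNA-binding subunits, and that in their full-length form act as IkB-like inhibitors. Nfkb1, at chr3:135584655-135691547 on the minus strand, measured 91.6, 71.7, 85.9, 82.9 and 83.8 CPM in vehicle replicates 1 to 5 and 74.5, 89.3, 73.8, 81.1 and 74.8 CPM in quinpirole replicates 1 to 5. The 10 libraries lay within 1.28 times of each other, and the groups covered nearly the same range. The log2 fold change of Nfkb1 was -0.08 (SE 0.09, limma adjusted p = 0.782), with a 95% interval of -0.27 to 0.11, the narrowest of the 10. Its within-group SD of 0.12 on the log2 scale was larger than that of only 9.9% of all genes tested.

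Nfkb2, at chr19:46304320-46312385 on the plus strand, ranged from 30.6 to 43.4 CPM in vehicle and from 30.3 to 44.2 CPM in quinpirole libraries, with means of 38.3 ± 4.92 and 37.4 ± 6.24 CPM (SD, n = 5 each). Its log2 fold change was -0.04, with a 95% interval of -0.32 to 0.24 (limma adjusted p = 0.940). The annotation places Psd, a protein-coding gene of the opposite strand, over 299 bases of Nfkb2. The libraries were directional, but whether the counting used the strand is not given in the sources used here, so reads of that stretch are uncertain. The annotation also places AC114539.1 over 1292 bases of Nfkb2 on the opposite strand, Gm43430 over 3897 bases of Nfkb1 on the same strand and Gm12230, a pseudogene, over 454 bases of Tnip1 on the opposite strand. These symbols are not among those of the table, and how reads in the overlaps were assigned is not given in the sources used here. Relb encodes the partner of the processed Nfkb2 product in the non-canonical branch of the pathway and lies at chr7:19606217-19629438 on the minus strand. It ranged from 8.39 to 13.97 CPM in vehicle and from 9.53 to 14.8 CPM in quinpirole libraries, with a log2 fold change of 0.01 and a 95% interval of -0.34 to 0.36 (limma adjusted p = 0.988). With 59 to 104 reads per library, counting alone would give Relb a CV of about 10.6%, against 17.3% observed.

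The 2 IkB genes of the set varied most in absolute terms. Nfkbia encodes IkB-alpha, the inhibitor that NF-kB induces to end its own activity, and lies at chr12:55489410-55492647 on the minus strand. Its level was 209.5, 184.5, 176.1, 259.7 and 285.1 CPM in vehicle replicates 1 to 5, and 139.9, 236.2, 224.3, 293.1 and 173.2 CPM in quinpirole replicates 1 to 5. The quinpirole group held both the lowest library, replicate 1, and the highest, replicate 4, so the vehicle range fell inside the quinpirole range. The means were 223.0 ± 47.6 and 213.3 ± 59.2 CPM (SD, n = 5 each), with a log2 fold change of -0.08 and a 95% interval of -0.52 to 0.35 (limma adjusted p = 0.910). Nfkbia had at least 1177 reads in each library, and counting alone would give a CV of about 2.47%, against 23.3% observed.

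Nfkbiz encodes IkB-zeta, a nuclear IkB protein that works with NF-kB on a subset of its targets, and lies at chr16:55811375-55838899 on the minus strand. It measured 173.1, 132.6, 163.1, 198.1 and 210.2 CPM in vehicle replicates 1 to 5, and 124.2, 195.4, 193.8, 243.1 and 152.5 CPM in quinpirole replicates 1 to 5. Here too the quinpirole group held both the lowest and the highest library, again replicates 1 and 4. The log2 fold change of Nfkbiz was 0.03 with a 95% interval of -0.35 to 0.42 (limma adjusted p = 0.962). The ratio of Nfkbiz to Nfkbia CPM was steadier than either gene, at 0.719 to 0.926 in vehicle and 0.828 to 0.888 in quinpirole libraries.

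Among the enzymes and adaptors of the feedback, Tnfaip3 encodes a ubiquitin-editing enzyme that cuts off signals upstream of the IkB kinase, and lies at chr10:19000910-19015657 on the minus strand. It measured 34.3, 24.2, 34.96, 52.0 and 46.0 CPM in vehicle replicates 1 to 5, and 29.0, 35.2, 38.1, 40.3 and 29.7 CPM in quinpirole replicates 1 to 5. Vehicle replicates 4 and 5 were above every quinpirole library and vehicle replicate 2 was below every one. The log2 fold change of Tnfaip3 was -0.11, the lowest of the 10, with a 95% interval of -0.51 to 0.29 (limma adjusted p = 0.857). Vehicle replicate 4 also had the highest neutrophil list mean, 4.59 on the log2 scale against 2.58 to 3.68 in the other 9 libraries, and without that library the log2 fold change of Tnfaip3 was 0.0070. The part of neutrophils in this value was not tested beyond a covariate: with the neutrophil list mean in the fit it was 0.10 (limma adjusted p = 0.816 in that fit).

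Tnip1 encodes a ubiquitin-binding partner of the Tnfaip3 product and lies at chr11:54910785-54962917 on the minus strand. Its level was 33.9, 26.7, 27.5, 23.8 and 33.4 CPM in vehicle replicates 1 to 5, and 29.6, 38.3, 25.9, 44.0 and 28.3 CPM in quinpirole replicates 1 to 5. Quinpirole replicates 2 and 4 stood above all other libraries, and the other 3 quinpirole libraries lay within the vehicle range. The log2 fold change was 0.17 with a 95% interval of -0.17 to 0.51 (limma adjusted p = 0.726).

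Zc3h12a encodes an endoribonuclease, Regnase-1, that degrades mRNAs of inflammatory genes, and lies at chr4:125118423-125127840 on the minus strand. It measured 134.8, 100.9, 108.4, 111.9 and 144.6 CPM in vehicle replicates 1 to 5, and 102.0, 162.0, 145.8, 163.7 and 106.7 CPM in quinpirole replicates 1 to 5. The quinpirole libraries fell apart into 3 high values, above every vehicle library, and 2 values near the lowest vehicle libraries. The log2 fold change of Zc3h12a was 0.16, with a 95% interval of -0.18 to 0.50 (limma adjusted p = 0.742). Birc3, which encodes a ubiquitin ligase of the TNF receptor complex that limits cell death, lies at chr9:7848699-7873186 on the minus strand. It ranged from 101.6 to 156.5 CPM in vehicle and from 99.7 to 160.5 CPM in quinpirole libraries, with a log2 fold change of 0.01 and a 95% interval of -0.31 to 0.33 (limma adjusted p = 0.988).

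**Figure D2:**
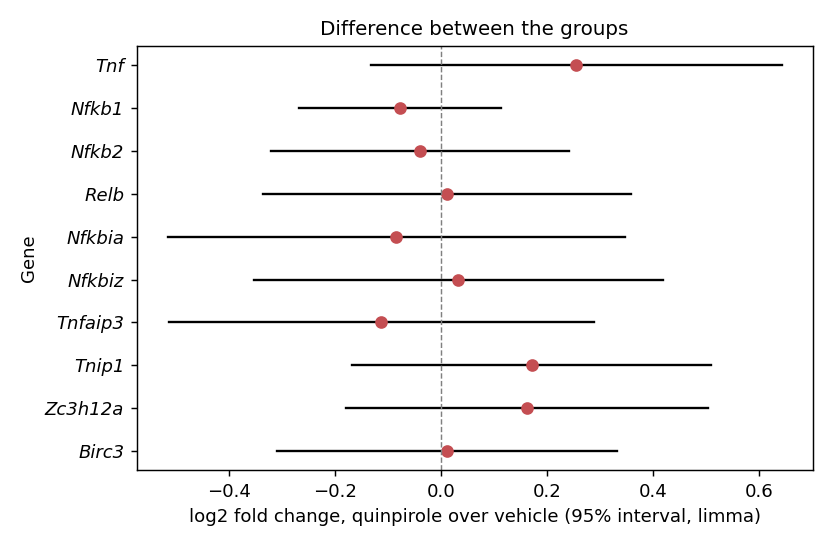
Log2 fold change of quinpirole over vehicle for each NF-kB gene (point) with its 95% interval from limma (line, 5 libraries per group). All 10 intervals cross 0, and they run from -0.52 at the lowest bound to 0.64 at the highest.

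These intervals set what the 5 libraries per group could show. The lowest bound of the 10 genes was 0.699 times the vehicle level, for Nfkbia, and the highest was 1.56 times, for Tnf. A p above the threshold does not show that the levels were alike. The sign of a fold change this close to 0 depended on single libraries. Leaving out 1 library at a time turned the sign of Birc3 in 5 of 10 cases, of Nfkbiz in 4 and of Relb in 3, whereas Tnf stayed between 0.12, without vehicle replicate 2, and 0.32, and Nfkb1 between -0.13 and -0.04.

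Levels of different genes can be set beside each other only per length, here as CPM per kb of the union of a gene's annotated exons. Nfkbia stood far above the rest, at 135.5 ± 31.6 CPM per kb over all libraries (SD, n = 10). Zc3h12a followed with 44.4 ± 8.63, Nfkbiz with 35.6 ± 7.30 and Birc3 with 25.6 ± 4.35 CPM per kb. The other 6 lay between 8.79 ± 1.77 for Tnip1 and 3.06 ± 0.530 for Relb. The lowest Nfkbia library was above the highest library of Zc3h12a, and the lowest of Birc3 above the highest of Tnip1, while other neighbours in this order overlapped in range. The union of exons overstates the length of genes with long minor transcripts: by the longest protein-coding transcript with a consensus coding sequence, Nfkb1 moved from rank 7 to rank 5 and Birc3 from rank 4 to rank 2, and Nfkbia and Relb remained first and last.

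**Figure D3:**
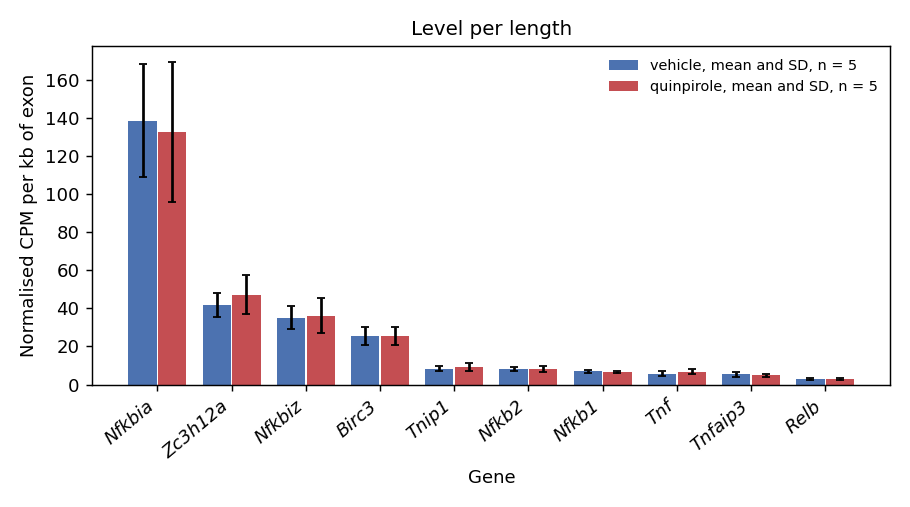
Normalised CPM per kb of annotated exon (bars, mean; lines, SD; 5 libraries per group) for each NF-kB gene in vehicle (blue) and quinpirole (red) skin. Nfkbia, at 135.5 CPM per kb over all libraries, is above the 9 other genes in both groups.

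Correlations between the genes from library to library were mostly positive, with Relb an exception within the quinpirole group, and few pairs passed adjustment. Pairs of genes outside the set were not examined, so whether this is particular to the 10 was not tested. All 45 pairs had a Pearson's r above 0 over the 10 libraries, with a median of 0.54. Within vehicle libraries 44 of the 45 were above 0, the exception being Tnfaip3 with Tnip1 at r = -0.07, and within quinpirole libraries 39 were. The 6 pairs below 0 there were those of Relb with Tnf, Nfkbia, Nfkbiz, Tnfaip3, Tnip1 and Birc3, down to r = -0.22 with Tnfaip3. After Benjamini-Hochberg adjustment over the 45 pairs, 5 pairs passed by Pearson's r and 8 by Spearman's rho, and 4 passed by both. Nfkbia and Nfkbiz were closest, with r = 0.94 (permutation p = 6e-05, adjusted p = 0.0027) and rho = 0.96 (permutation p = 4e-05, adjusted p = 0.0018), and leaving out the 2 libraries with the most extreme Nfkbia levels gave r = 0.87. Within the groups r for this pair was 0.87 in vehicle and 0.998 in quinpirole libraries. Nfkbiz went with Tnfaip3 at r = 0.81 and rho = 0.92 (permutation adjusted p = 0.0444 and 0.0106), and r was 0.66 without the 2 farthest libraries. For Nfkbiz with Zc3h12a these were 0.84 and 0.85 (permutation adjusted p = 0.0444 and 0.0336; r = 0.75 without the 2 farthest). For Nfkbiz with Nfkb2 they were 0.82 and 0.81 (permutation adjusted p = 0.0444 and 0.0456), and r was 0.56 without the 2 farthest. Leaving out the farthest libraries narrows the range of Nfkbiz, which by itself can lower r. Nfkb1 with Nfkb2, the fifth pair to pass by Pearson's r, had r = 0.84 (permutation adjusted p = 0.0444), rho = 0.75 (permutation adjusted p = 0.0782) and r = 0.82 without the 2 farthest libraries. At the other end, Tnip1 with Relb had r = 0.02 and Tnip1 with Tnfaip3 r = 0.07.

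The libraries with the highest and the lowest levels belonged to both groups. Quinpirole replicate 4 had the highest level of 6 of the 10 genes (Tnf, Nfkbia, Nfkbiz, Tnip1, Zc3h12a and Birc3) and quinpirole replicate 2 of a further 2 (Nfkb2 and Relb). Vehicle replicate 2 had the lowest level of 5 genes and quinpirole replicate 1 of 4, and each of these was among the lowest 3 libraries for 9 of the 10. Between the highest and the lowest library Tnf differed 2.37 times, Tnfaip3 2.15 times and Nfkbia 2.10 times.

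**Figure D4:**
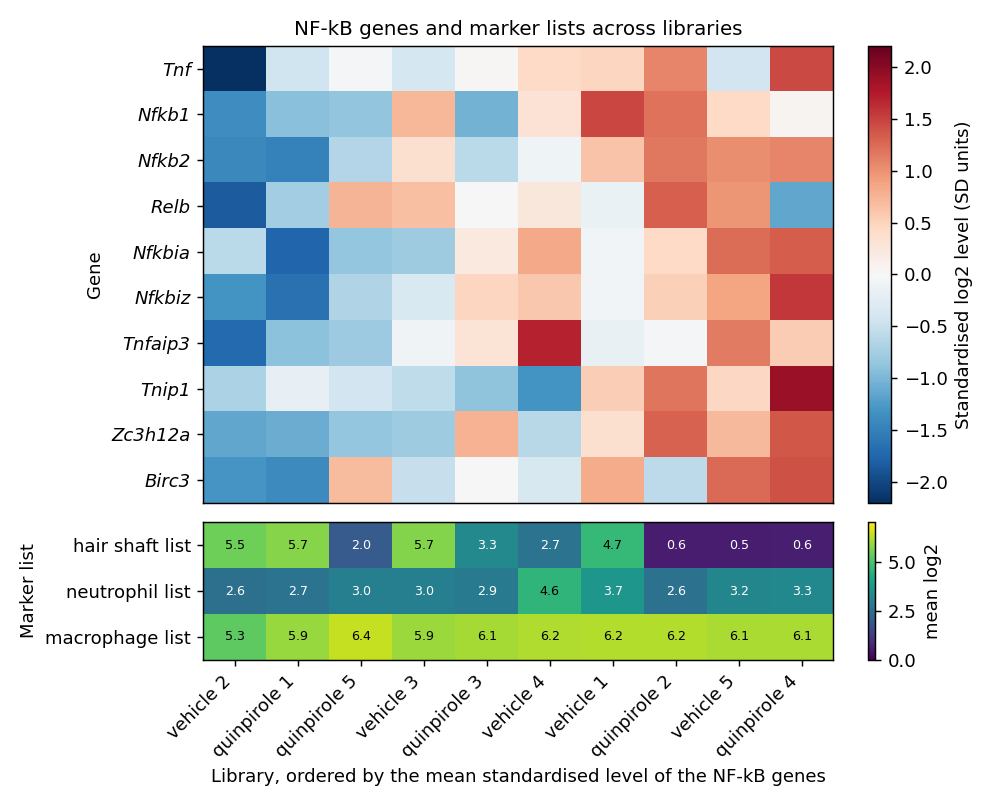
Top: log2 level of each NF-kB gene in each library, standardised over the 10 libraries (colour, in SD units). Bottom: mean log2 level of 3 marker lists in the same libraries; columns are ordered by the mean standardised level of the 10 genes. Libraries of both groups mix along the order, and the 3 libraries at the right have the 3 lowest hair shaft list means, 0.527 to 0.580.

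The hair shaft, neutrophil and macrophage marker lists had correlations of different size with these genes, and none passed adjustment. The 3 libraries with the highest mean standardised level of the 10 genes, quinpirole replicates 4 and 2 and vehicle replicate 5, had hair shaft list means of 0.580, 0.563 and 0.527. The hair shaft list mean had a negative r with all 10 genes, from -0.78 for Nfkbiz to -0.26 for Nfkb1. In this family of 30 relations (10 genes with the hair shaft, neutrophil and macrophage lists) 0 passed Benjamini-Hochberg adjustment. Nfkbiz with the hair list had r = -0.78 and rho = -0.78 (permutation p = 0.0084 and 0.0108, adjusted p = 0.117 and 0.206), with r = -0.85 in vehicle alone, -0.81 in quinpirole alone and -0.73 without the 2 farthest libraries. Nfkbia with the hair list had r = -0.78 and rho = -0.75 (permutation p = 0.0109 and 0.0178, adjusted p = 0.117 and 0.206), with -0.97 in vehicle, -0.82 in quinpirole and -0.64 without the 2 farthest. The hair list covered 28 tested markers of 30, and the 29 with a deposited symbol summed to 23.0 to 2031 CPM in vehicle and 25.2 to 2115 CPM in quinpirole libraries. Its part in the levels of the 10 genes was not tested beyond the fit with it as a covariate, in which limma called 0 of them. In that fit the median log2 fold change of the 10 was -0.10 with 3 of 10 above 0. Nfkbia, at -0.28, was the 1 of 10 with an unadjusted p under 0.05 (limma adjusted p = 0.398), against 10.9% of all genes tested. The macrophage list had 17 tested markers of 18, and the 18 with a deposited symbol summed to 1051 to 2114 CPM in vehicle and 1805 to 2399 CPM in quinpirole libraries. With it, r was above 0 for all 10 genes and highest for Tnf, at 0.78 (permutation p = 0.0209, adjusted p = 0.117; rho = 0.60, permutation p = 0.0720, adjusted p = 0.224). For Tnf it was 0.96 in vehicle and 0.18 in quinpirole libraries, and 0.62 without the 2 farthest. Vehicle replicate 2, the lowest library for Tnf, also had the lowest macrophage list mean, 5.26 against 5.93 to 6.37 in the other 9. The neutrophil list had 12 tested markers of 23, and the 20 with a deposited symbol summed to 121.1 to 379.9 CPM in vehicle and 120.1 to 224.0 CPM in quinpirole libraries. With it, r was highest for Tnfaip3, at 0.73 (permutation p = 0.0153, adjusted p = 0.117; rho = 0.61, permutation p = 0.0674, adjusted p = 0.224). Ly6g, Ngp and Elane, defining markers of neutrophils, were not among the symbols of the table. With the neutrophil list mean as a covariate the median log2 fold change of the 10 was 0.10, with 9 of 10 above 0. In that fit limma called 0 of them, and 1 of 10 had an unadjusted p under 0.05, against 12.6% of all genes tested. The direction of the shift thus differed between the covariates. The skeletal muscle list, with 16 tested markers of 16, was higher in quinpirole libraries by its median list mean, 6.69 against 5.597, and summed to 600.2 to 2106 CPM in vehicle and 1192 to 5642 CPM in quinpirole libraries. Its highest library was quinpirole replicate 4, the highest also for 6 of the 10 genes. With this list mean as a covariate the median log2 fold change of the 10 was -0.16, with 1 of 10 above 0. Nfkbia stood at -0.36 (limma adjusted p = 0.749). Birc3, at -0.33, was the 1 of 10 with an unadjusted p under 0.05 (limma adjusted p = 0.448), against 8.5% of all genes tested. Limma called 0 of the 10, and the part of the muscle list in their levels was not tested further.

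Genes outside the set were compared with the mean standardised profile of the 10 genes over the 10 libraries, as a description. The closest was Irak4, at r = 0.95, which encodes the kinase that IL-1 and Toll-like receptors use to start NF-kB signalling. Its level was 14.6, 8.82, 13.2, 12.5 and 14.1 CPM in vehicle replicates 1 to 5 and 9.39, 13.8, 11.4, 16.8 and 11.7 CPM in quinpirole replicates 1 to 5. Vehicle replicate 2 and quinpirole replicate 1 were lowest and quinpirole replicate 4 was highest, as in the mean profile. Irak4 was picked for its likeness to that profile, so sharing these libraries follows from the choice. Next came Ceacam19 at r = 0.94, Il34, which encodes a ligand of the macrophage receptor CSF1R, at 0.93, Rab11fip1, which encodes an effector of recycling endosomes, at 0.92, and Pnpla1, which encodes an enzyme of epidermal acylceramide synthesis, at 0.92.

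The rest of the pathway was described by role in lists of other genes. Among ligands and receptors, 19 of 24 listed genes were tested, 0 were called by limma, 9 were higher and 10 lower, and the median log2 fold change was -0.02. The lowest p in each direction belonged to Tnfrsf11a, the receptor RANK, with 13.8 ± 3.36 CPM in vehicle against 17.6 ± 2.60 CPM in quinpirole libraries (SD, n = 5 each; limma adjusted p = 0.468), and to the lipopeptide receptor gene Tlr1, with 23.6 ± 6.39 and 18.2 ± 4.82 CPM (limma adjusted p = 0.573). Il1r1, the IL-1 receptor, had a log2 fold change of 0.17 and the lymphotoxin gene Ltb -0.41 (limma adjusted p = 0.776 and 0.576). The lowest value of this list was -0.85, for Il1b, with 86.6 ± 97.3 CPM in vehicle and 32.2 ± 11.3 CPM in quinpirole libraries (SD, n = 5 each, limma adjusted p = 0.604). Among 32 tested adaptors and kinases, 0 were called, 18 were higher and 14 lower, and the median was 0.02. Their smallest p were those of Tab3 and Irak1 on the higher side, at 0.17 and 0.14, and of Traf3 and Myd88 on the lower side, at -0.17 and -0.21 (limma adjusted p of 0.517, 0.572, 0.493 and 0.638).

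Other subunits and IkB proteins, 8 of 8 tested, had 6 higher and 2 lower values, a median of 0.07 and 0 calls. Bcl3, a nuclear IkB protein, measured 15.96 ± 5.61 CPM in vehicle against 21.5 ± 9.38 CPM in quinpirole libraries (SD, n = 5 each; log2 fold change 0.38, limma adjusted p = 0.608), and the log2 fold change of Nfkbib, another cytoplasmic IkB protein, was 0.17 (limma adjusted p = 0.843). Nkrf, a repressor of NF-kB targets, had -0.19 and Nfkbil1 -0.08 (limma adjusted p = 0.668 and 0.906). Other feedback genes, 22 of 22 tested, had 8 higher and 14 lower values, a median of -0.02 and 0 calls. Traf1, an adaptor that is itself induced by NF-kB, had a log2 fold change of -0.45, and Zc3h12d, a relative of Zc3h12a, -0.42 (limma adjusted p = 0.493 and 0.468), while Tnip3, a relative of Tnip1, had 0.39 and Tax1bp1, a ubiquitin-binding adaptor of Tnfaip3, 0.16 (limma adjusted p = 0.562 and 0.539). In these 4 lists 0 genes had an unadjusted p under 0.05 by limma, against 11.4% of all genes tested, and 0 were called by edgeR or DESeq2, against 0.0344% and 1.51% of all genes. By edgeR and by DESeq2, 1 of the 19 ligands and receptors had an unadjusted p under 0.05 (5.26%, against 11.6% and 11.8% of all genes).

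Other targets of NF-kB had a wider range of fold changes than the 10 genes, in a list of more genes, which alone can widen a range. Of 42 tested, 29 were lower and 13 higher, the median log2 fold change was -0.18, and the values ran from -1.33 to 1.14. The lowest was that of Cxcl2, with 23.6 ± 32.9 CPM in vehicle and 6.24 ± 5.96 CPM in quinpirole libraries (SD, n = 5 each, limma adjusted p = 0.520). Limma called 0 of the 42 and edgeR 0, while DESeq2 called 1, Ccl2, against 0.0206%, 0.0344% and 1.51% of all genes tested. By limma 8 of the 42 had an unadjusted p under 0.05 (19.0%, against 11.4% of all genes tested). By edgeR and by DESeq2 the count was 12 (28.6%, against 11.6% and 11.8% of all genes). Single libraries moved the median and the limma count of 8. Without vehicle replicate 4 the median was -0.04 and 5 genes had an unadjusted p under 0.05 (11.9%, against 9.58% of all genes). Without vehicle replicate 2 they were -0.27 and 15 (35.7%, against 11% of all genes). With the neutrophil list mean as a covariate the median turned to 0.06, and 6 genes had an unadjusted p under 0.05 (14.3%, against 12.6% of all genes). With the hair shaft and the skeletal muscle list mean as a covariate the median was -0.28 and -0.25. In each of these fits 10 genes had an unadjusted p under 0.05 (23.8%, against 10.9% and 8.5% of all genes). Ccl2, the chemokine that recruits monocytes, measured 7.41, 3.27, 5.37, 8.18 and 7.40 CPM in vehicle replicates 1 to 5 and 10.3, 17.6, 9.12, 29.99 and 12.6 CPM in quinpirole replicates 1 to 5. The groups did not overlap, which held for 1 of the 42 genes, against 2.2% of all genes tested. Quinpirole replicate 4 was the highest library, as it was for Tnf. Ccl2 differed by 1.14 on the log2 scale with an SE of 0.31 (limma adjusted p = 0.227; DESeq2 adjusted p = 0.0152), so its call depended on the test. With the skeletal muscle list mean as a covariate the log2 fold change of Ccl2 was 0.72 (limma adjusted p = 0.642). Csf1, the growth factor of macrophages, measured 35.4 ± 7.89 CPM in vehicle against 53.0 ± 11.7 CPM in quinpirole libraries (SD, n = 5 each; log2 fold change 0.57, limma adjusted p = 0.259). On the lower side stood Cd83, a marker of activated dendritic cells, at -0.46 and the chemokine Ccl3 at -1.14 (limma adjusted p = 0.349 and 0.358). Ccl3 measured 8.03 ± 7.56 CPM in vehicle, where replicate 4 had 21.4 CPM, against 2.65 ± 1.999 CPM in quinpirole libraries (SD, n = 5 each). Without vehicle replicate 4 its log2 fold change was -0.74 (limma adjusted p = 0.522), and with the neutrophil list mean as a covariate it was -0.585 (limma adjusted p = 0.517).

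**Figure D5:**
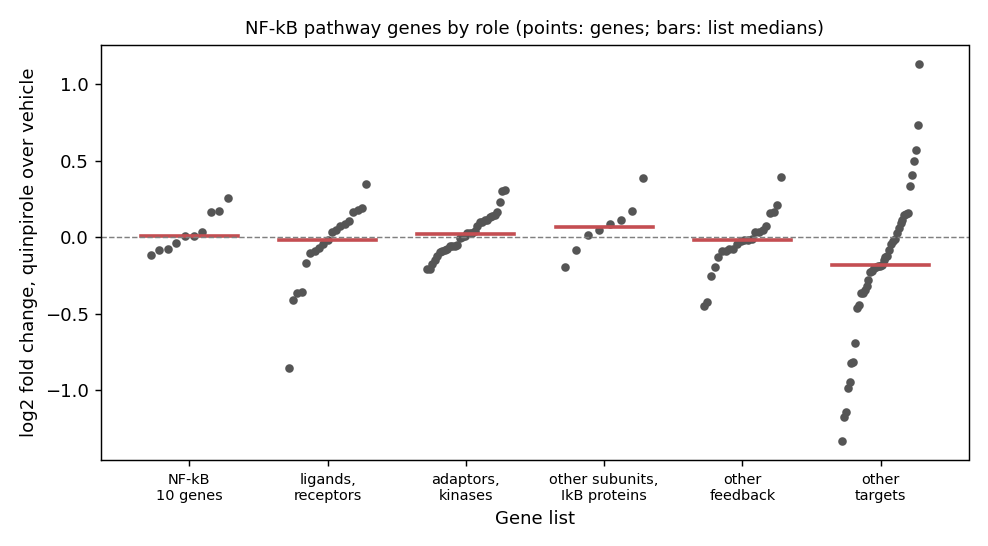
Log2 fold change of quinpirole over vehicle for each tested gene (points, sorted within a list) of the 10 NF-kB genes and of 5 lists of other pathway genes, with the list medians (red bars). The 10 genes lie between -0.11 and 0.26, and the other targets between -1.33 and 1.14.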

How the data were processed

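Libraries were directional and depleted of ribosomal RNA, per the labels' protocols. Among the tools that the submitters' processing notes list, without saying what each did, are Trimmomatic 0.38, RSEM 1.3.0, Bowtie2 and edgeR, and the build listed is mm10. The authors deposited 1 table of signal values, which are normalised counts for 17016 gene symbols in 10 libraries. Every value (100%) was a whole multiple of the smallest one of its library, within 1e-06 of a read, so reads could be recovered. Scaling these reads by edgeR's TMM method gave the deposited scaling within 2.22e-16.

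Values were put on the CPM scale by the mean column total. Testing was limited to the 14548 genes with 1 CPM or more in 5 or more libraries. Limma 3.58.1 (R 4.3.3) was fitted with a mean-variance trend to log2(CPM + 1), two-sided, and p-values were adjusted over all genes tested by the Benjamini-Hochberg method, with calls at 0.05. Other settings covered pseudocounts, filters, scalings, array weights, edgeR 4.0.16 and DESeq2 1.42.0 on recovered reads, covariates, the replicate number as a block, and leaving out libraries. The skeletal muscle covariate and leaving out both libraries numbered 4 were added after seeing the data. Correlations used 100000 permutations. Replicates differed by more than sampling noise, with a chi-square of at least 6.41 per gene. The fits were tested on simulated data. Positions and lengths came from GENCODE M21.

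The 10 genes and the lists were chosen with earlier results of these data known. Named genes are the 10, the 2 smallest p per direction in each pathway list and the 5 closest profiles, leaving out provisional symbols. Il1b and Cxcl2 were named as well, as the lowest log2 fold changes of their lists. Figures were drawn with matplotlib 3.10.9.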

Additional observations from a re-analysis of the deposited data

Results flagged for a closer look

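One value stood far from its group. The macrophage list mean of vehicle replicate 2 was 5.26 on the log2 scale, against 5.94 to 6.18 in the other 4 vehicle libraries, a gap of 0.738 of the whole range. It was 1 of 26 groups of 5 examined, for the 10 genes and 3 marker lists, and chance alone marks about 1 in 20 such groups. The same library was lowest for 5 of the 10 NF-kB genes, among them Tnf at 5.83 CPM. Without it the log2 fold change of Tnf was 0.12 in place of 0.26.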

How the results depend on the processing

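Over 25 alternatives, 0 of 250 values of the 10 genes passed the threshold of limma, edgeR or DESeq2, and the smallest adjusted p was 0.335, for Tnf with the neutrophil covariate (log2 fold change 0.44). The median of the 10 lay between -0.16 and 0.10. Of the 250 values 33 had the opposite sign to the reported one, and Tnf and Nfkb1 had none. The cause was not tested. The skeletal muscle covariate and leaving out both libraries numbered 4 were chosen after seeing the data. Signs turned as follows (log2 fold changes). With quantile normalisation Birc3 was -0.0031. With array weights Nfkbiz was -0.019, Nfkbib -0.041 and Nfkbil1 0.061. With the hair covariate Nfkbiz was -0.13, Relb -0.063, Birc3 -0.099 and Nfkbib -0.0062. With the neutrophil covariate Nfkbia was 0.064, Tnfaip3 0.10 and Nfkb2 0.0086. With the skeletal muscle covariate Nfkbiz was -0.26, Tnip1 -0.030, Relb -0.026, Zc3h12a -0.047, Birc3 -0.33, Il1r1 -0.062, Bcl3 -0.095 and Nfkbib -0.14. Without both libraries numbered 4 Nfkbiz was -0.033, Tnip1 -0.0018, Birc3 -0.093, Nfkbib -0.079 and Nfkbil1 0.048. Leaving out 1 library at a time gave -0.21 to 0.056 for Nfkbia, -0.081 to 0.16 for Nfkbiz, -0.26 to 0.0070 for Tnfaip3, -0.12 to 0.030 for Nfkb2, -0.097 to 0.081 for Relb, -0.073 to 0.097 for Birc3, -0.058 to 0.33 for Nfkbib and -0.24 to 0.0096 for Nfkbil1.

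Over all genes the count called, 3 by limma, was 5 with a pseudocount of 0.1, with a filter of 5 CPM, with library size alone and by edgeR with TMM, 6 without a filter, 21 with array weights, 219 by DESeq2, 10 with the hair covariate, and 0 with the neutrophil covariate (1836 at an unadjusted p under 0.05), the skeletal muscle covariate (1237) or without both libraries numbered 4 (1453). When 1 library was left out it lay between 0 and 10: 10 without vehicle replicate 5, 1 without vehicle replicate 3, and 0 without any other (1319 to 2012 at an unadjusted p under 0.05). The replicate number was used as a block although the labels do not say that it pairs samples: same-numbered libraries had deviations correlated between -0.24 and 0.22, and 1 of 5 vehicle libraries matched its own number best. With the replicate block 0 genes were called, with 1576 at an unadjusted p under 0.05, and 0 of the 10. Ccl2 was the 1 other target called by DESeq2, with an adjusted p of 0.0152 there and of 0.125 to 0.642 in the limma and edgeR alternatives. Depth limits Tnf and Relb most, with as few as 41 and 59 reads in a library.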
